A study of Caenorhabditis elegans with 12 samples.

Results

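The FMRFamide-like (flp) and neuropeptide-like (nlp) genes of Caenorhabditis elegans were taken from the deposited gene counts by name, as every gene whose WormBase symbol is flp or nlp followed by a number. This gave 102 of the 46748 genes in the table, all annotated as protein coding: 31 flp genes, the 8 epidermal antimicrobial genes nlp-27 to nlp-34, and 63 other nlp genes. Of these, 92 passed the filter on low counts and were tested (30 flp, 6 of nlp-27 to nlp-34 and 56 other nlp genes). RNA-Seq was performed on poly(A)-selected RNA of whole worms at day 1 of adulthood in 3 genotypes with 4 biological replicates each, to ask how the transcriptome differs between worms without a circular RNA of crh-1 and worms without the protein of the same gene. The genotypes were wild type (strain N2), crh-1(syb385) (strain VDL786), in which an intronic CRISPR/Cas9 deletion removes circ-crh-1 (syb385 below), and crh-1(n3315) (strain MT9973), described as a CREB null. Each mutant genotype is a single strain carrying a single allele. The study's methods describe plates with FUdR, an inhibitor of progeny production, unless indicated otherwise, while the sample labels name none, so whether these worms met it is not known here.

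Neuropeptides are cut from longer precursor proteins by proprotein convertases, trimmed, often amidated at their C-terminus, stored in dense core vesicles and released to act mostly on G protein-coupled receptors. The flp precursors give peptides that end in Arg-Phe-amide, while nlp is a name for peptide precursors of many unrelated families. Most are made in neurons, but nlp-40 is secreted by the intestine to trigger the expulsion step of defecation, and the glycine-rich and tyrosine-rich products of nlp-27 to nlp-34 are made in the epidermis, where nlp-29 and its neighbours are known to be induced by fungal infection and wounding.

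Total counts per library ranged from 16348586 to 25369267, and the 102 genes together took between 0.0604% and 0.0996% of them, so precision was limited by counting for the low genes. Levels are given as CPM, the usual depth-scaled counts, here with TMM scaling, and compared between genes only as CPM per kb of exon. The targeted gene, crh-1, was at 42.4 ± 4.06 CPM (SD, n = 4) in wild type, 44.8 ± 1.41 CPM (SD, n = 4) in crh-1(syb385) and 50.1 ± 2.41 CPM (SD, n = 4) in crh-1(n3315). Against wild type its log2 fold change was 0.08 (adjusted p = 0.64) in crh-1(syb385) and 0.24 (adjusted p = 0.0572) in crh-1(n3315). It was thus not lowered in the latter, whose samples are written below as the libraries labelled n3315, and since the other deletion is intronic the count of crh-1 checks neither label. Summed levels of neuron markers (12 of 12 detected) were 413.9 to 614.2 CPM in wild type, 511.5 to 546.9 CPM in crh-1(syb385) and 623.4 to 711.7 CPM in the libraries labelled n3315, and those of germline markers (6 of 6) were 2510 to 3744, 4292 to 4988 and 5299.6 to 5927 CPM. Wild type replicate 3 stood apart in several marker sums, with 413.9 CPM for neuron against 552.7 to 614.2 CPM in the other wild-type libraries, 2510 against 3243 to 3744 CPM for germline and 1986 against 3380 to 3776.5 CPM for body wall muscle. Members whose call changed when it was left out are therefore given with and without it. In RNA of whole worms, fewer cells of a type and less RNA per cell cannot be told apart.

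In wild type 1 gene stood well above the rest. The most abundant was nlp-40, at 182.9 ± 39.7 CPM per kb (SD, n = 4), and each of its wild-type libraries (147.3 to 226.0 CPM per kb) was above each library of the next gene, nlp-36 (48.2 to 105.5 CPM per kb). After these came nlp-24, whose peptides belong to the same glycine-rich and tyrosine-rich family as nlp-27 to nlp-34, at 61.95 ± 64.4 CPM per kb, nlp-20 at 40.25 ± 9.16 and nlp-80 at 33.4 ± 6.86 CPM per kb (SD, n = 4 each). The wild-type libraries of nlp-24 ran from 8.44 to 155.5 CPM per kb, the highest being replicate 3, so its place rests on that library. Among flp genes the order was flp-28 at 39.9 ± 5.07, flp-14 at 34.99 ± 5.38, flp-24, which acts in stress-induced sleep, at 33.04 ± 6.04, flp-10, whose peptides inhibit egg laying, at 32.97 ± 5.41, and flp-1, which shapes locomotion, at 31.1 ± 4.35 CPM per kb (SD, n = 4 each). Below nlp-40, no gene had all its wild-type libraries above all those of the next gene in the order, so neighbouring ranks are not resolved. The median wild-type level was 13.1 CPM per kb over the 31 flp genes, 10.1 over nlp-27 to nlp-34 and 5.46 over the 63 other nlp genes, where the median of all tested genes was 10.7 CPM per kb. In both mutants nlp-40 stayed first by its mean, at 170.85 ± 7.54 CPM per kb in syb385 and 103.6 ± 8.96 CPM per kb in the libraries labelled n3315 (SD, n = 4 each). The next gene in both was nlp-24, at 147.35 ± 11.5 and 85.2 ± 23.6 CPM per kb (SD, n = 4 each). In the libraries labelled n3315 the SD ranges of nlp-40 and nlp-24 overlapped, so first place is not resolved there.

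**Figure D1:**
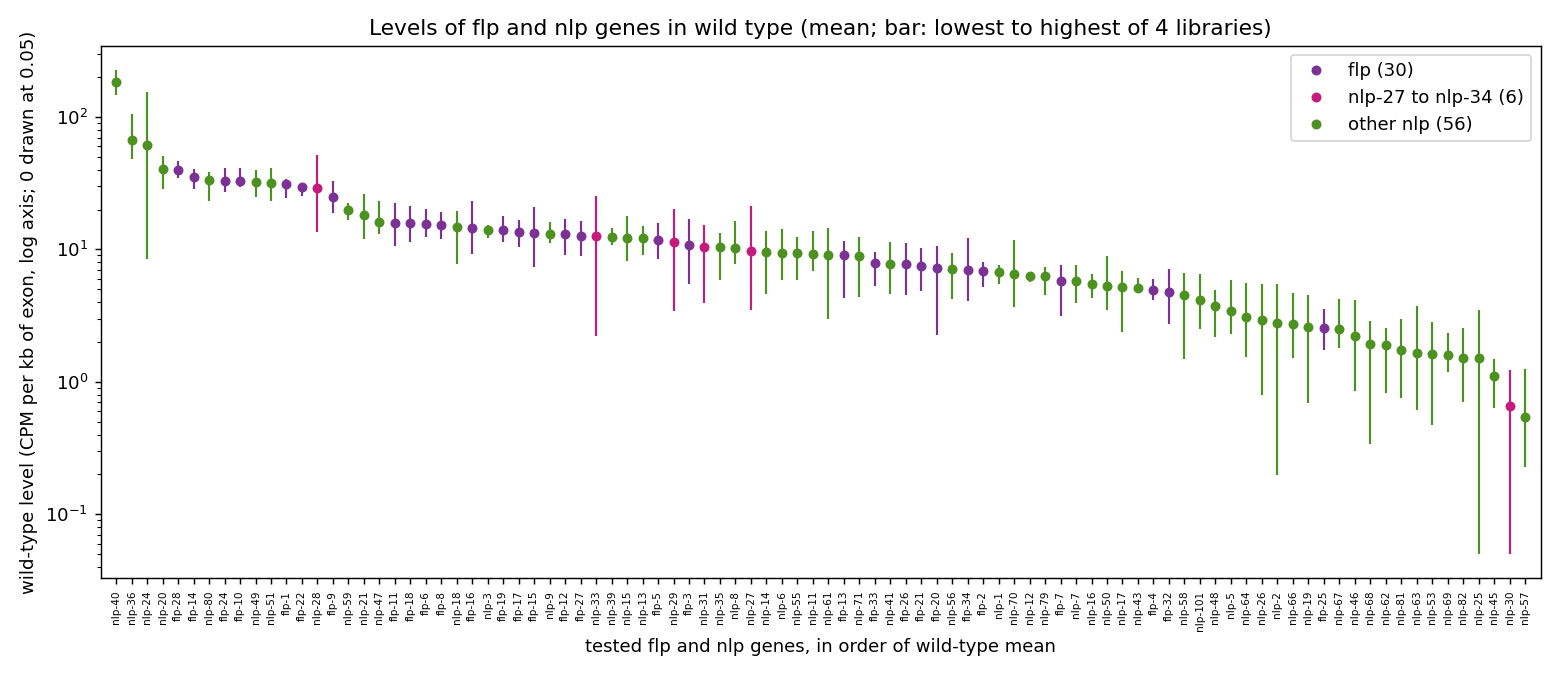
Mean wild-type level of the 92 tested flp and nlp genes in CPM per kb of exon (log axis), in descending order, with bars from the lowest to the highest of the 4 libraries and colours for the 30 flp genes, 6 of nlp-27 to nlp-34 and 56 other nlp genes. nlp-40 stands apart at 182.9 CPM per kb, and the bar of nlp-24, from 8.44 to 155.5 CPM per kb, is among the widest.

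No member was without counts in all libraries, and 86 had a count in every library. The 10 members that were not tested were flp-23, nlp-4, nlp-22, nlp-23, nlp-32, nlp-34, nlp-52, nlp-60, nlp-76 and nlp-78, none of which reached more than 29 counts in any library. Of these, flp-23 and nlp-22 had at most 3 counts in every library, a number that a count of 0 also allows. Since a gene can pass the filter through the genotype where it is high, the tested members are not all members.

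On the genome (WBcel235), 13 flp genes and 19 other nlp genes lay on chromosome X, the most of any chromosome for both groups. Of nlp-27 to nlp-34, 7 lay on chromosome V and nlp-32 on chromosome III. The 6 genes nlp-34, nlp-31, nlp-30, nlp-29, nlp-28 and nlp-27, in this order, sat within 10.94 kb of chromosome V (3978829 to 3989770).

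Against wild type, most flp and nlp genes had values slightly below wild type in both mutants, and few passed the test at 2-fold. The median log2 fold change of the 92 tested members was -0.19 in syb385, where 68 were below wild type, and -0.23 in the libraries labelled n3315, where 63 were below, while the median of all tested genes was -0.05 and -0.04. Of all tested genes, 54.7% and 52.4% were below wild type, beside 73.9% and 68.5% of the members. The medians fell nearer to those of all genes, to -0.08 and -0.09, when wild type replicate 1 was left out. Both comparisons share the same 4 wild-type libraries. By group, the medians in syb385 were -0.16 for flp, 0.27 for nlp-27 to nlp-34 and -0.35 for other nlp genes, and in the libraries labelled n3315 they were -0.13, 0.68 and -0.40.

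Summed over all 102 genes, the level was 748.4 to 887.0 CPM in wild type, 734.4 to 801.5 CPM in syb385 and 627.2 to 723.0 CPM in the libraries labelled n3315, so the last did not overlap wild type. Much of this difference was that of nlp-40 alone. Its mean was 163.3 CPM in wild type and 92.5 CPM in the libraries labelled n3315, beside mean sums of 821.0 and 671.9 CPM. The lower sum is thus not read as a fall of the group as a whole. Most of the sum came from the other nlp genes, which were at 439.2 to 561.0 CPM in wild type, 456.3 to 493.3 CPM in syb385 and 357.2 to 413.4 CPM in the libraries labelled n3315. The flp sum was 271.7 to 351.8 CPM in wild type and 237.4 to 268.9 CPM in syb385, without overlap, and 226.95 to 273.8 CPM in the libraries labelled n3315, which overlapped wild type. The summed neuron markers of the libraries labelled n3315 were above wild type (given above), with 0 of 12 called in either direction. The list was split, with 6 markers above and 6 below wild type, of which 3 were higher and 2 lower by adjusted p at changes under 2-fold (log2 fold changes over the list from -0.89 to 0.69). Body wall muscle markers (6 of 6 detected) summed to 1986 to 3776.5 CPM in wild type and, without overlap, 5261 to 6454 CPM in the libraries labelled n3315. Of these 6, 5 were higher there by adjusted p, 2 of them called, and 1 had a negative log2 fold change (-0.39). In syb385 their sum was 3558.5 to 4914 CPM, which overlapped wild type. The part of cell composition in these sums was not tested.

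Called genes had a change of at least 2-fold and an adjusted p under 0.05 (quasi-likelihood test of edgeR, adjusted by Benjamini-Hochberg over all 14511 tested genes). In syb385, 1 of the 92 tested members was called higher (nlp-26) and 4 lower (nlp-39, nlp-48, nlp-51 and nlp-41), where 2.24% of all tested genes were called higher and 4.48% lower. The lower share, 4.35% of members, was thus near that of all genes. At any fold, 2 members were higher (nlp-16 and nlp-26) against a background of 7.42%, and 7 were lower against 8.88%, the others being flp-10, nlp-59 and flp-2. All 4 libraries of syb385 lay above all 4 of wild type for 2 members, with 9.79% of all genes doing so, and below for 11 members, with 8.95% of all genes.

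In the libraries labelled n3315, 1 member was called higher (flp-25) and 6 lower (nlp-39, nlp-48, nlp-51, nlp-70, flp-10 and nlp-59), where 4.17% and 11.2% of all tested genes were. The shares of members, 1.09% and 6.52%, were below both. At any fold 1 member was higher and 15 lower, against backgrounds of 20.3% and 21.7%. The libraries did not overlap for 2 members that were higher and 11 that were lower, where 20.5% and 18.2% of all genes did not. Of the lower calls, nlp-39, nlp-48 and nlp-51 were made in both mutants, which is 75% of those in syb385 and 50% of those in the libraries labelled n3315. Over all genes, 534 lower calls were made in both, 82.2% and 32.9% of the respective lists, and with wild type shared nothing particular to the members is read from this.

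**Figure D2:**
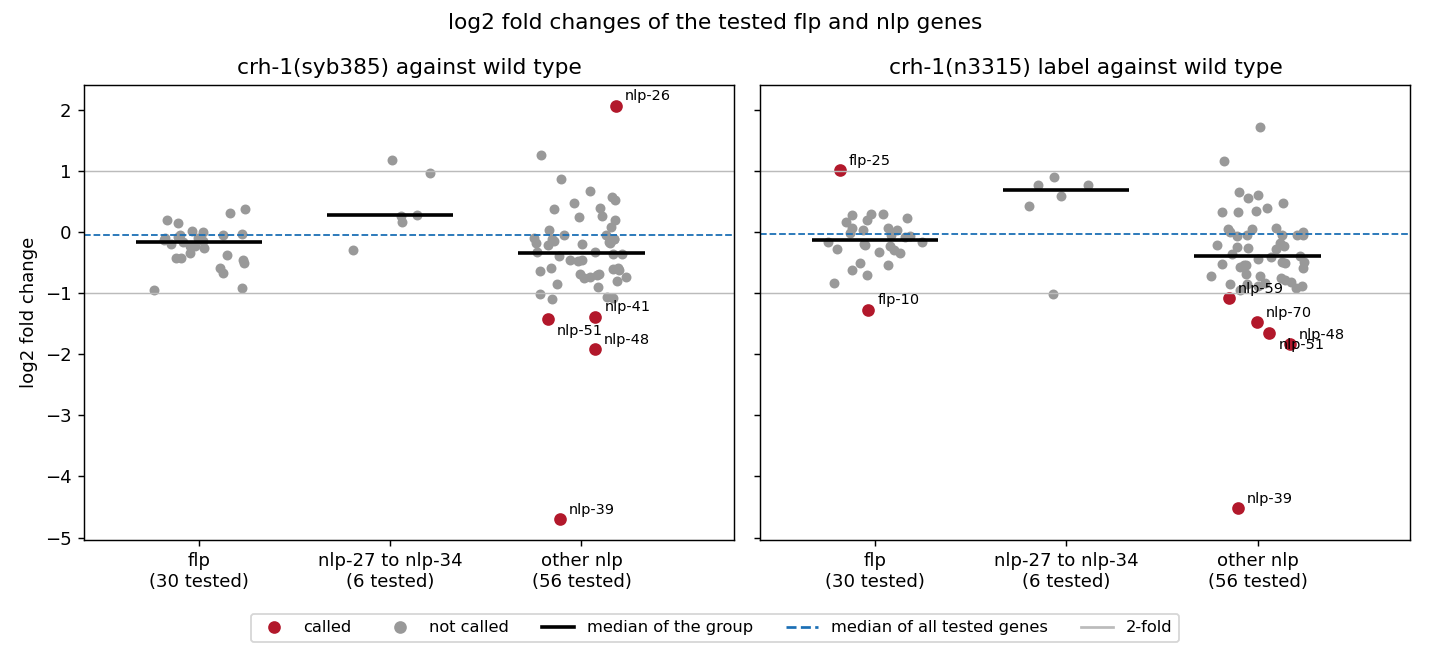
log2 fold change against wild type of the 92 tested genes in syb385 (left) and the libraries labelled n3315 (right), by group, with called genes in red and named, the group median as a black bar, the median of all tested genes as a dashed line (-0.05 and -0.04) and 2-fold changes as grey lines. nlp-39 lies apart from the rest in both panels, at -4.70 and -4.52.

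Among the members, the largest change was that of nlp-39 (WBGene00008295; chromosome I, 12461645 to 12462097), which was nearly lost in both mutants. It had 5.83, 4.90, 5.07 and 6.57 CPM in wild-type replicates 1 to 4, 0, 0.509, 0.262 and 0.0958 CPM in syb385, and 0.168, 0.460, 0.233 and 0.102 CPM in the libraries labelled n3315. All wild-type libraries were far above every mutant library, which held 0 to 9 counts each. The log2 fold change was -4.70 (SE, the standard error, 0.57, adjusted p = 8.05e-05), or 25.9-fold lower, in syb385, and -4.52 (SE 0.56, adjusted p = 2.27e-05), or 22.9-fold lower, in the libraries labelled n3315. Between the mutants it was 0.18 (SE 0.68, adjusted p = 0.888). These calls held under every alternative that was run, including the test for a change above 2-fold (adjusted p = 0.000895 and 0.000328).

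Genes next to nlp-39, chosen after its values were seen, were also near 0 in both mutants. The C-type lectin gene clec-11 lies on the opposite strand, 742 bases from nlp-39 on the side of lower coordinates. It had 14 to 49 counts per wild-type library, at most 2 in syb385 and 0 in the libraries labelled n3315. C54C8.12, further out on the same side, had 25 to 76 counts per wild-type library, at most 3 in syb385 and at most 1 in the libraries labelled n3315. The next tested gene beyond it, C54C8.4, was lower in the libraries labelled n3315 (log2 fold change -1.62, adjusted p = 0.00465) but had a level of 0.926 to 2.11 CPM in wild type and 1.01 to 1.51 CPM in syb385. On the other side, T27F6.10 and clec-12 overlapped between the genotypes, and the adjoining gly-15 had at most 9 counts in any library. Further out on that side, sygl-1 was higher than wild type in all mutant libraries, at 0.54 (adjusted p = 0.0116) in syb385 and 1.15 (adjusted p = 1.43e-05) in the libraries labelled n3315. The fall of nlp-39 was therefore shared by a short run of neighbouring genes, and its source was not tested.

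**Figure D3:**
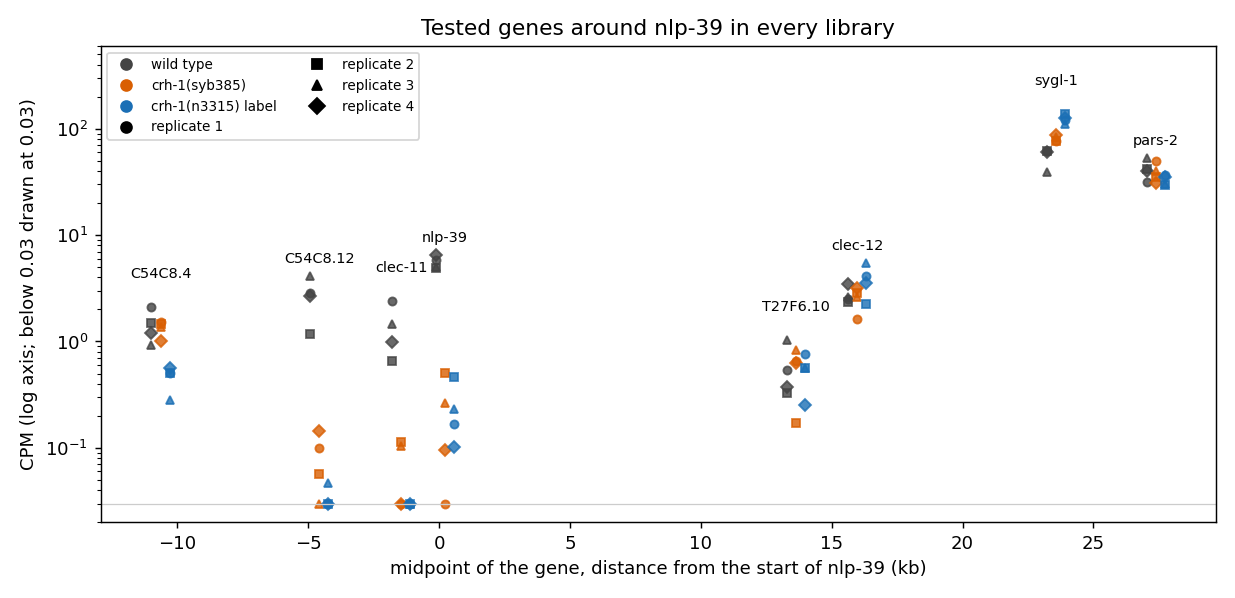
Level in CPM (log axis, values below 0.03 drawn at 0.03) of the tested genes within 25 kb of nlp-39 in each of the 12 libraries, against the distance of the gene's midpoint from the start of nlp-39 in kb, with colours for genotypes and symbols for replicates. C54C8.12, clec-11 and nlp-39 fall to near 0 in both mutants, while clec-12 and T27F6.10 overlap between the genotypes and sygl-1 is higher in the mutants.

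nlp-51 and nlp-48 were also lower in both mutants. nlp-51 (WBGene00011997; chromosome II, 11319107 to 11319760) had 20.5, 11.4, 14.1 and 17.1 CPM in wild-type replicates 1 to 4, 7.51, 5.94, 4.40 and 5.65 CPM in syb385, and 5.35, 5.31, 4.56 and 4.90 CPM in the libraries labelled n3315. Every mutant library was below every wild-type library, and the libraries labelled n3315 lay close together. The log2 fold change was -1.42 (SE 0.21, adjusted p = 0.000345) in syb385 and -1.65 (SE 0.21, adjusted p = 2.88e-05) in the libraries labelled n3315. When a change above 2-fold was tested, nlp-51 passed in the libraries labelled n3315 (adjusted p = 0.021) and not in syb385 (adjusted p = 0.352).

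nlp-48 (WBGene00008002; chromosome III, 9400531 to 9401067) was a low gene, with 15 to 35 counts per wild-type library and 2 to 11 per mutant library. Its level was 1.08, 0.699, 1.58 and 1.45 CPM in wild-type replicates 1 to 4, 0.202, 0.623, 0.105 and 0.335 CPM in syb385, and 0.379, 0.409, 0.233 and 0.307 CPM in the libraries labelled n3315. Both mutants lay below wild type and overlapped each other, and syb385 replicate 2 came close to wild type replicate 2. Its fitted log2 changes were -1.92 (SE 0.55, adjusted p = 0.0271) and -1.84 (SE 0.55, adjusted p = 0.0132). The call in syb385 was lost without wild type replicate 1 or 4 and without syb385 replicate 1, 3 or 4, with an adjusted p of 0.0506 to 0.0744, while the other was kept in all fits that left out 1 library. nlp-48 lies inside the span of rgr-1 on the opposite strand, with no shared exon.

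In syb385, nlp-41 (WBGene00007316; chromosome II, 14550913 to 14552485) was lower and nlp-26 higher. nlp-41 had 1.62, 4.06, 3.49 and 1.91 CPM in wild-type replicates 1 to 4, 0.655, 1.13, 0.891 and 1.53 CPM in syb385, and 2.06, 1.79, 1.49 and 2.30 CPM in the libraries labelled n3315, so syb385 lay below wild type and the libraries labelled n3315 overlapped it. The fitted log2 change of this gene was -1.39 (SE 0.37, adjusted p = 0.0188) in syb385 and -0.53 (adjusted p = 0.25) in the libraries labelled n3315, and between the mutants 0.85 (SE 0.37, adjusted p = 0.1251), so that the difference between the mutants did not pass. The call was lost without wild type replicate 2 or syb385 replicate 1 or 3 (adjusted p = 0.051 to 0.0602).

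nlp-26 (WBGene00003764; chromosome V, 19613528 to 19614521), of the same peptide family as nlp-24, had 0.245, 0.793, 1.69 and 0.914 CPM in wild-type replicates 1 to 4, 2.37, 3.34, 3.98 and 5.51 CPM in syb385, and 2.695, 1.53, 1.07 and 2.76 CPM in the libraries labelled n3315. All syb385 libraries were above wild type. The log2 fold change was 2.07 (SE 0.47, adjusted p = 0.00742) there and 1.15 (SE 0.47, adjusted p = 0.06) in the libraries labelled n3315. The second value was 1.61 (adjusted p = 0.0107) without wild type replicate 3 and 1.37 (adjusted p = 0.0378) without n3315 replicate 3. Other alternatives weakened it, to as low as 0.83. Its highest adjusted p, apart from the test for a change above 2-fold, was 0.15. The neighbouring gene grsp-1, chosen after its values were seen, was also higher in both mutants, with a log2 fold change of 2.62 (adjusted p = 0.0149) in syb385 and 3.60 (adjusted p = 0.000625) in the libraries labelled n3315, and Y43F8C.3 on the other side was lower, at -1.20 (adjusted p = 0.000625) and -1.44 (adjusted p = 3.97e-05).

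**Figure D4:**
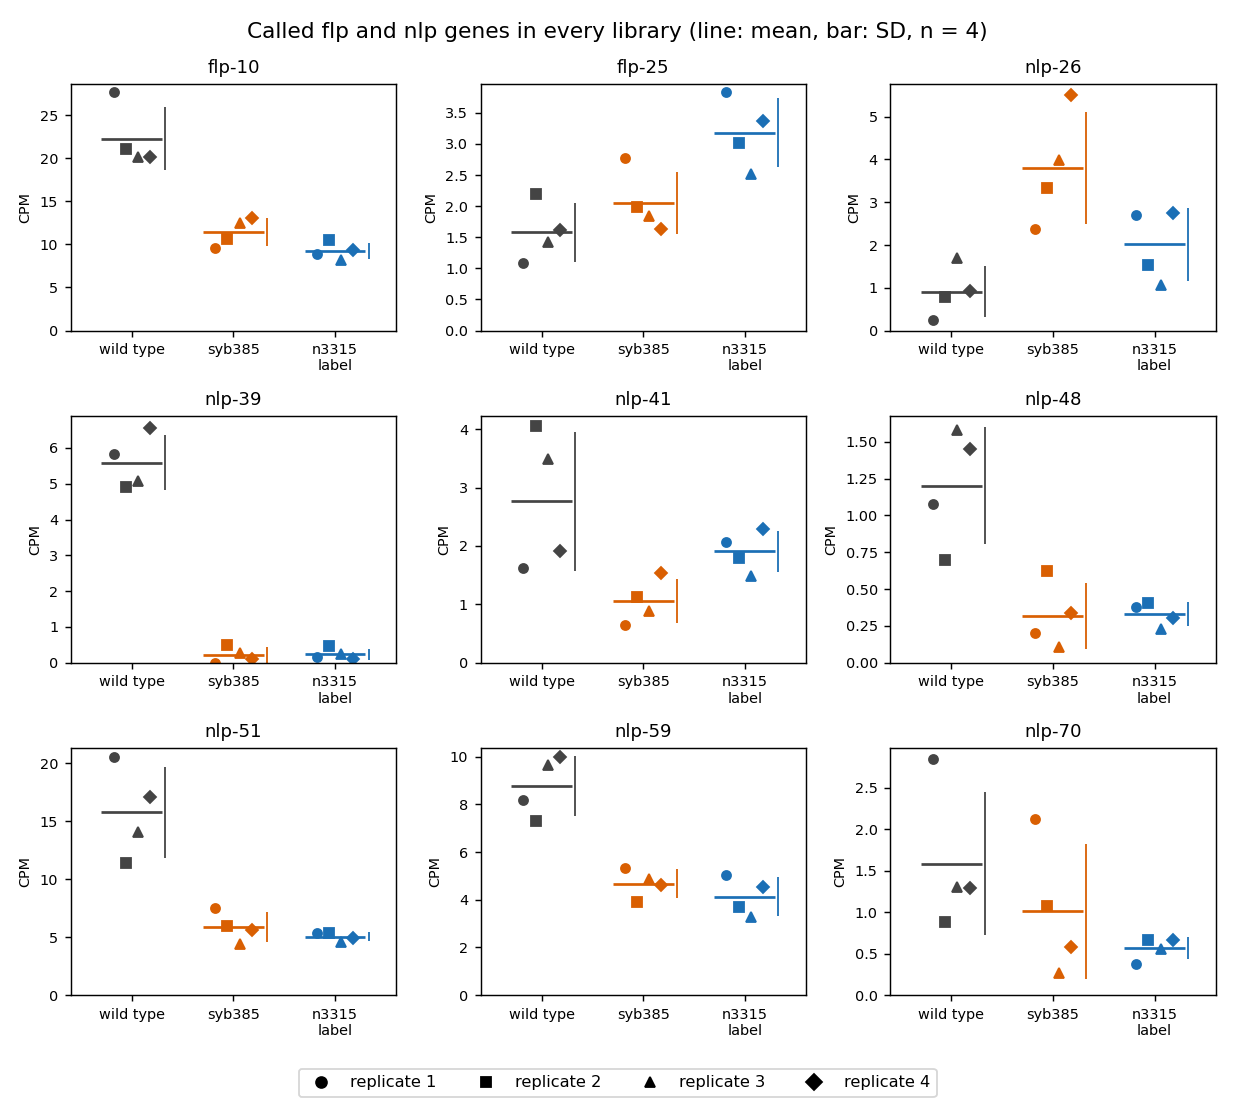
Level in CPM of the 9 called flp and nlp genes in each library, with symbols for the replicates, a line at the mean and a bar for the SD (n = 4). flp-10, nlp-39, nlp-48, nlp-51 and nlp-59 lie below wild type in all 8 mutant libraries, nlp-41 and nlp-26 leave the wild-type range in all 4 libraries of syb385, and flp-25 and nlp-70 in all 4 of the libraries labelled n3315.

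The egg-laying inhibitor flp-10 (WBGene00001453; chromosome IV, 7868907 to 7870075) was the clearest change among flp genes. It had 27.7, 21.1, 20.1 and 20.2 CPM in wild-type replicates 1 to 4, 9.63, 10.6, 12.5 and 13.0 CPM in syb385, and 8.93, 10.5, 8.14 and 9.35 CPM in the libraries labelled n3315, and both mutants lay below wild type. The log2 fold change was -1.27 (SE 0.16, adjusted p = 2.46e-05) in the libraries labelled n3315 and -0.96 (SE 0.16, adjusted p = 0.000808) in syb385, just under 2-fold. In syb385 it passed 2-fold without wild type replicate 3 or 4 or without syb385 replicate 4, at -1.001 to -1.022. nlp-59 (WBGene00008522; chromosome V, 14971436 to 14972184) showed the same order, with 8.19, 7.32, 9.64 and 9.97 CPM in wild-type replicates 1 to 4, 5.34, 3.90, 4.88 and 4.5995 CPM in syb385, and 5.05, 3.68, 3.26 and 4.55 CPM in the libraries labelled n3315. The fitted log2 change of this gene was -0.91 (SE 0.20, adjusted p = 0.0061) in syb385 and -1.08 (SE 0.20, adjusted p = 0.000577) in the libraries labelled n3315, or -0.97 without n3315 replicate 3.

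The remaining calls were near the threshold. nlp-70 (WBGene00044513; chromosome V, 272092 to 272936) had 2.84, 0.886, 1.31 and 1.29 CPM in wild-type replicates 1 to 4, 2.12, 1.08, 0.262 and 0.575 CPM in syb385, and 0.379, 0.664, 0.558 and 0.664 CPM in the libraries labelled n3315. Replicate 1 raised the wild-type mean, and only the libraries labelled n3315 lay wholly below wild type, with a log2 fold change of -1.48 (SE 0.57, adjusted p = 0.047). Without wild type replicate 1 this was -1.03 (adjusted p = 0.179), and the call was also lost without wild type replicate 4, syb385 replicate 2 or 4, or any one library labelled n3315 (adjusted p = 0.0528 to 0.121).

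flp-25 (WBGene00010575; chromosome III, 9361528 to 9365360) was the single flp gene called higher. It had 1.08, 2.19, 1.42 and 1.62 CPM in wild-type replicates 1 to 4, 2.77, 1.98, 1.84 and 1.63 CPM in syb385, and 3.83, 3.01, 2.51 and 3.37 CPM in the libraries labelled n3315, all of them above wild type. The log2 fold change was 1.01 (SE 0.29, adjusted p = 0.0118) in the libraries labelled n3315 and 0.38 (adjusted p = 0.428) in syb385, with 0.63 (SE 0.29, adjusted p = 0.143) between the mutants. It fell under 2-fold, to 0.87 to 0.98, without wild type replicate 1 or 3 or n3315 replicate 1 or 4, and to 0.97 with a prior count of 2.

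Besides the called genes, the libraries labelled n3315 had lower levels of 9 members at a change under 2-fold. These were flp-12, flp-14, flp-19, flp-27, nlp-9, nlp-20, nlp-35, nlp-40 and nlp-80, with log2 fold changes from -0.88 (nlp-35, adjusted p = 0.0284) to -0.49 (nlp-9, adjusted p = 0.0425). The libraries of flp-12, flp-14, flp-27, nlp-20 and nlp-35 overlapped wild type. For flp-12, flp-19, flp-27, nlp-9 and nlp-35 the adjusted p passed 0.05 under some alternative other than the test above 2-fold. It reached 0.124 for flp-27, the highest of the 9. Without wild type replicate 3, nlp-35 was called lower, at -1.07 (adjusted p = 0.00527). Some abundant genes were among the 9. The intestinal signal nlp-40 (chromosome I, 10413 to 16842) had 131.5, 185.1, 201.8 and 134.9 CPM in wild-type replicates 1 to 4, 159.7, 145.5, 148.3 and 156.8 CPM in syb385, and 89.1, 93.1, 84.6 and 103.3 CPM in the libraries labelled n3315. The fitted log2 change of this gene was -0.82 (SE 0.13, adjusted p = 0.000189) in the last and -0.10 (SE 0.13, adjusted p = 0.664) in syb385, which lay within the wild-type range. The sum of the 5 intestine markers that the table holds under their names was 303.8 to 599.96 CPM in wild type and higher, at 659.3 to 808.0 CPM, in the libraries labelled n3315, with none at 0. The markers did not move as one, since 2 of the 5 had negative log2 fold changes there and 1 was lower by adjusted p (-0.91), and in syb385, where nlp-40 did not pass, their sum was 749.6 to 1038 CPM. Their part in the value of nlp-40 was not tested. Of the other abundant members, nlp-20 was at -0.78 (adjusted p = 0.00256), nlp-80 at -0.75 (adjusted p = 0.00284) and flp-14 at -0.51 (adjusted p = 0.0092), while flp-1, flp-24 and flp-28 were at -0.22, -0.29 and -0.05 and nlp-36 at -0.26 and did not pass (adjusted p = 0.279, 0.122, 0.825 and 0.404).

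Reads of some members can come from another gene on the opposite strand, since the sources used here do not say whether the counting used strand. nlp-35 shares 12.3% of its exonic length with C33A12.19, whose own log2 fold changes were -1.04 and -1.02, so the value of nlp-35 is uncertain. nlp-53 shares 53.2% with Y12A6A.1 and nlp-46 13.9% with T28H10.1, nlp-36 5.38% with dars-1 and nlp-24 4.83% with glb-15.

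Between the mutants, 0 members were called in either direction, where 1.49% of all genes were called higher in the libraries labelled n3315 and 2.39% lower. DESeq2 also called 0, and at an unadjusted p under 0.05 from edgeR 4 members were higher and 5 lower, where 17.5% and 15.3% of all genes were. At any fold, 1 member was higher and 2 were lower by adjusted p, against backgrounds of 10.6% and 7.42%. The libraries did not overlap for 6 higher and 7 lower members, where 19.2% and 14.3% of all genes did not. The clearest difference was that of nlp-40, whose libraries labelled n3315 all lay below syb385 (log2 fold change -0.72, SE 0.13, adjusted p = 0.00273, at most 0.014 under the alternatives other than the test above 2-fold). nlp-20 had 17.9, 20.0, 19.7 and 17.3 CPM in syb385 and 11.8, 15.7, 9.91 and 12.005 CPM in the libraries labelled n3315, a log2 fold change of -0.60 (SE 0.18, adjusted p = 0.0305, up to 0.109 under the same alternatives). flp-2 went the other way, with 4.75, 4.66, 3.05 and 3.78 CPM in wild-type replicates 1 to 4, 2.17, 1.87, 2.78 and 1.77 CPM in syb385, and 3.29, 4.19, 3.82 and 3.17 CPM in the libraries labelled n3315. It was lower in syb385 than in wild type (-0.92, adjusted p = 0.0171) and higher in the libraries labelled n3315 than in syb385 (0.75, SE 0.24, adjusted p = 0.0438, up to 0.129 under them). Against wild type, flp-2 was called lower in syb385 without wild type replicate 3 (-1.03, adjusted p = 0.00504) or without syb385 replicate 3 (-1.07, adjusted p = 0.0161).

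The epidermal antimicrobial genes were the group that differed most among the wild-type libraries themselves, and none of them was called. Over the 6 tested genes, the median coefficient of variation was 75.8% in wild type, 23.96% in syb385 and 36.7% in the libraries labelled n3315, where that of all tested genes was 24.8%, 13.9% and 13.4%. The highest of the wild-type libraries was replicate 3 for 5 of the 6, and the lowest was replicate 1 for 3 and replicate 2 for the other 3. Summed over the 8 genes, wild-type replicates 1 to 4 had 11.9, 17.4, 54.3 and 34.4 CPM, syb385 had 30.3, 41.5, 40.7 and 50.7 CPM, and the libraries labelled n3315 had 40.5, 18.999, 43.1 and 40.8 CPM. Wild type thus covered the whole range of both mutants.

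nlp-29, the gene of the group best known from infection and wounding, had 1.76, 1.26, 7.41 and 6.32 CPM in wild-type replicates 1 to 4, 2.32, 6.39, 4.19 and 5.89 CPM in syb385, and 8.04, 3.01, 7.68 and 6.49 CPM in the libraries labelled n3315. All 3 genotypes overlapped, and the log2 fold changes were 0.17 (SE 0.49, adjusted p = 0.859) and 0.59 (SE 0.49, adjusted p = 0.35). nlp-31 was at 4.67 ± 2.12, 5.62 ± 1.31 and 6.24 ± 1.66 CPM in wild type, syb385 and the libraries labelled n3315 (SD, n = 4 each), with log2 fold changes of 0.27 (adjusted p = 0.639) and 0.42 (adjusted p = 0.33). nlp-30 was low and uneven, with 0 to 33 counts per library and log2 fold changes of 0.28 (adjusted p = 0.88) and 0.89 (adjusted p = 0.468). Direction in syb385 depended on single libraries for nlp-29, nlp-30 and nlp-31: without wild type replicate 2, for example, nlp-29 was at -0.13 and nlp-30 at -0.13, and without wild type replicate 1 nlp-31 was at -0.00022.

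nlp-27 had 2.11, 3.36, 12.8 and 5.07 CPM in wild-type replicates 1 to 4, 9.88, 10.8, 16.04 and 15.6 CPM in syb385, and 9.52, 6.23, 12.6 and 11.035 CPM in the libraries labelled n3315. Wild type replicate 3 alone lay among the mutants, and the log2 fold changes were 1.17 (SE 0.41, adjusted p = 0.0635) and 0.76 (SE 0.41, adjusted p = 0.149). Without this library nlp-27 was called higher in both, at 1.89 (adjusted p = 0.000238) and 1.48 (adjusted p = 0.000716), and in syb385 also without the filter on low counts (1.18, adjusted p = 0.0172). Other alternatives weakened both changes, to as low as 0.89 and 0.47. The highest adjusted p, apart from the test above 2-fold, was 0.15 in syb385 and 0.332 in the libraries labelled n3315. nlp-33, which lies apart from the cluster on chromosome V (11147344 to 11147810), had 0.784, 3.36, 8.93 and 4.61 CPM in wild type, 7.36, 9.62, 8.23 and 9.06 CPM in syb385, and 10.1, 2.86, 8.24 and 8.68 CPM in the libraries labelled n3315. Wild type replicate 3 was the only wild-type library inside the range of syb385. n3315 replicate 2 lay below wild type replicates 2, 3 and 4, so the libraries labelled n3315 overlapped wild type. Its log2 fold changes were 0.96 (SE 0.48, adjusted p = 0.195) and 0.76 (SE 0.48, adjusted p = 0.217), and without wild type replicate 3 they were 1.54 (adjusted p = 0.0145) and 1.35 (adjusted p = 0.0191). Other alternatives weakened them, to as low as 0.61 and 0.40. The highest adjusted p, apart from the test above 2-fold, was 0.321 and 0.409.

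nlp-28 was the member of the group with lower values. It had 4.56, 4.48, 17.3 and 12.5 CPM in wild-type replicates 1 to 4, 6.50, 7.81, 6.71 and 10.5 CPM in syb385, and 4.25, 2.09, 6.28 and 6.49 CPM in the libraries labelled n3315, and wild type overlapped both. The log2 fold change was -0.30 (SE 0.41, adjusted p = 0.681) in syb385, or 0.13 without wild type replicate 3, and -1.02 (SE 0.42, adjusted p = 0.0614) in the libraries labelled n3315. The second value was called by DESeq2 (adjusted p = 0.0317), without the filter on low counts (adjusted p = 0.0254) and without wild type replicate 1 (-1.26, adjusted p = 0.0182) or 2 (-1.25, adjusted p = 0.0243). Under the other alternatives nlp-28 was not called there. Its weakest value was -0.59, and the adjusted p reached 0.226 apart from the test above 2-fold. Over the group, edgeR called 0 of the 6 tested genes in each of the 3 comparisons, and the genes at an unadjusted p under 0.05 numbered 1 in syb385 (higher), 1 in the libraries labelled n3315 (lower) and 0 between the mutants. Of all genes, 13% were higher and 17% lower at that threshold in syb385, while for the libraries labelled n3315 these shares were 23.7% and 26%.

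The 2 untested genes of the group had few counts. nlp-34 had 0, 0, 8 and 2 counts in wild-type replicates 1 to 4, 0, 11, 5 and 14 counts in syb385, and 10, 4, 5 and 7 counts in the libraries labelled n3315. nlp-32 had 5 counts in wild type replicate 3 and 0 in the other 11 libraries, each of which allows up to 3 counts, so that no difference was detectable at this depth.

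**Figure D5:**
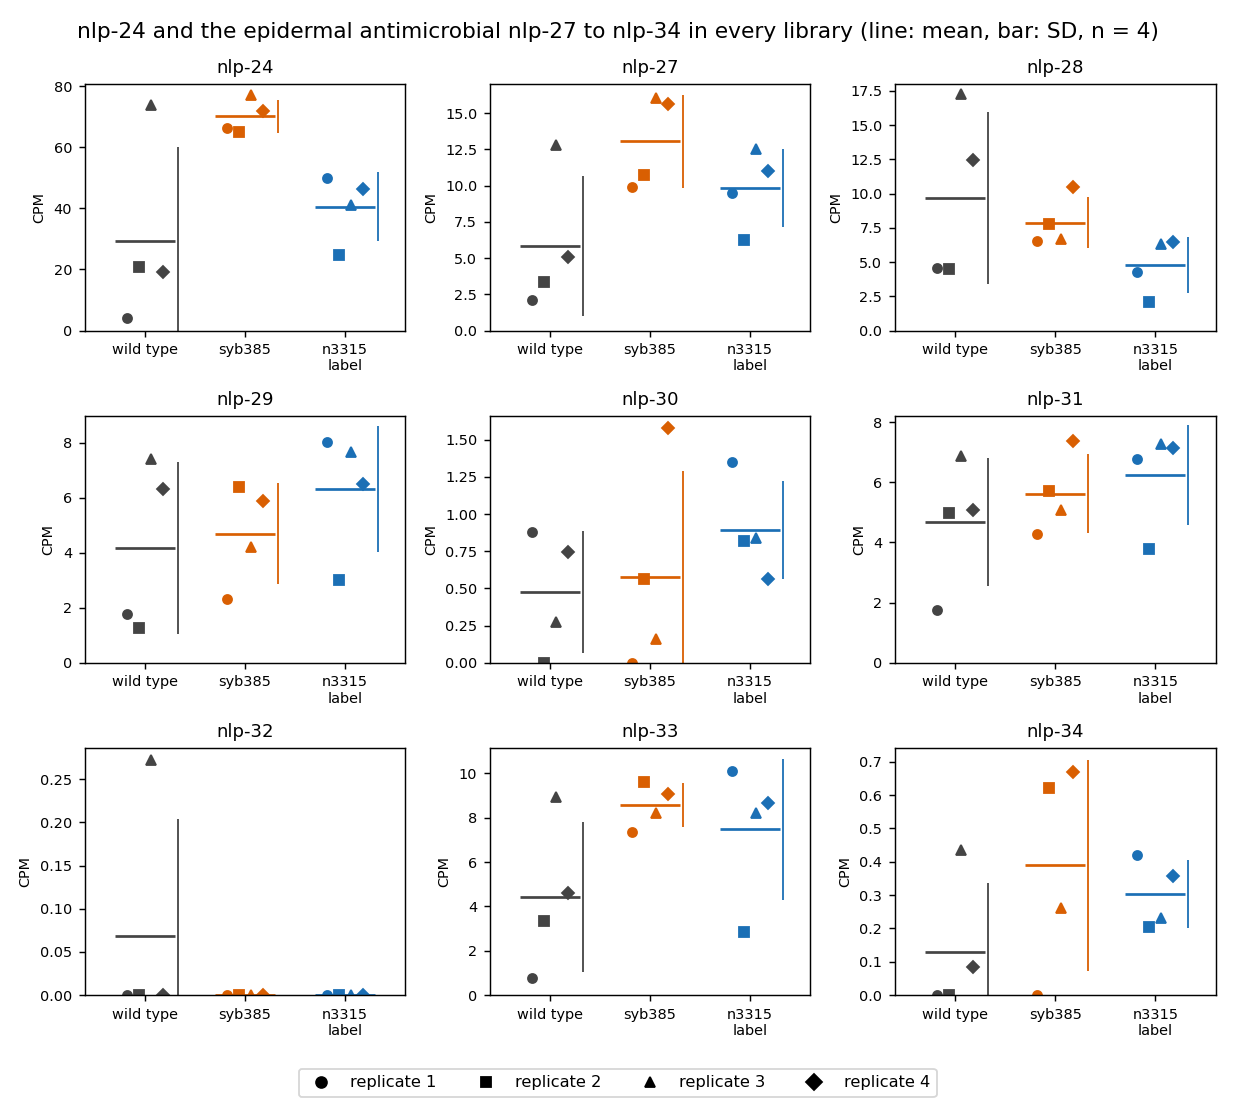
Level in CPM of nlp-24 and of nlp-27 to nlp-34 in each library, with symbols for the replicates, a line at the mean and a bar for the SD (n = 4, bars not drawn below 0). Wild type replicate 3 (triangle) lies within or above the mutants' range for nlp-24, nlp-27 and nlp-33, where the other 3 wild-type libraries lie below all 4 of syb385.

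The same spread was seen in nlp-24 (WBGene00003762; chromosome V, 11616283 to 11616887). It had 4.02, 20.8, 74.0 and 19.2 CPM in wild-type replicates 1 to 4, 66.4, 65.1, 77.0 and 72.0 CPM in syb385, and 50.1, 24.7, 40.996 and 46.4 CPM in the libraries labelled n3315. Except for replicate 3, wild type lay below both mutants. The log2 fold changes of 1.26 (SE 0.52, adjusted p = 0.112) and 0.47 (SE 0.51, adjusted p = 0.495) became 2.25 (adjusted p = 0.000238) and 1.47 (adjusted p = 0.00272) without that library, and nlp-24 was also called in syb385 without the filter on low counts (1.25, adjusted p = 0.0258). Other alternatives weakened them, to as low as 0.88 in syb385 and 0.08 in the libraries labelled n3315. The highest adjusted p, apart from the test above 2-fold, was 0.229 and 0.887. nlp-25, which was chosen after its values were seen, was at 1.72 (adjusted p = 0.0561) in the libraries labelled n3315, or 2.49 (adjusted p = 0.00977) without wild type replicate 3, and was called by DESeq2 (adjusted p = 0.0307). Its lowest value over the alternatives was 1.29, and its adjusted p reached 0.166 apart from the test above 2-fold. In all, leaving out wild type replicate 3 raised the called members from 5 to 10 in syb385, where over all genes the calls rose from 325 higher and 650 lower to 517 and 888. For the libraries labelled n3315 the called members went from 7 to 12, with flp-25 lost, while over all genes the calls went from 605 and 1625 to 669 and 1626. The epidermis markers (11 of 11 detected, none at 0) summed to 1299 to 1408 CPM in wild type, 1824 to 2024 CPM in syb385 and 1653 to 2009.5 CPM in the libraries labelled n3315. They did not move as one: in the libraries labelled n3315 the called markers were dpy-7 (-2.55), sqt-3 (-1.96) and che-14 (-1.28) lower and bli-1 (1.71), rol-6 (1.63) and col-19 (1.17) higher. Their part in the values of nlp-27 to nlp-34 was not tested.

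Few genes that act with the peptides were called. The caenacin, immune signalling, processing and vesicle lists below each had at most 1 call per comparison. As background, 2.24% of all tested genes were called higher and 4.48% lower for syb385 against wild type. The shares for n3315 against wild type were 4.17% and 11.2%, and those between the mutants 1.49% and 2.39%. Whether any of these short lists differed from all genes was not tested. In the epidermis, the caenacin genes (cnc), a related family of antimicrobial peptides, had 5 of 11 members tested, of which cnc-3 was called higher in both mutants, at 1.25 (adjusted p = 0.0318) and 1.36 (adjusted p = 0.00826). Of 15 genes of the epidermal immune signalling that acts upstream of nlp-29, 1 was called, the STAT-like factor sta-2, lower in the libraries labelled n3315 (-1.07, adjusted p = 0.00126). Its level was 10.0 to 14.1 CPM in wild type and 3.58 to 7.58 CPM there. The median log2 fold change of these 15 genes was -0.21 and -0.22.

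Of 11 genes for the processing of peptide precursors, 0 were called in syb385 and 1 in the libraries labelled n3315, the proprotein convertase gene kpc-1 (-1.11, SE 0.11, adjusted p = 4.37e-06). Its level fell from 67.3 to 92.7 CPM in wild type to 35.7 to 42.2 CPM. Of 10 genes for dense core vesicles and their release, ric-19, which acts in vesicle maturation, was called lower in syb385 (-1.15, adjusted p = 0.0185). unc-31, the worm homologue of the release factor CAPS, was called higher in the libraries labelled n3315 than in syb385 (1.19, SE 0.29, adjusted p = 0.0117), with 1.58 to 3.43 CPM in syb385, 3.63 to 6.06 CPM in the libraries labelled n3315 and 3.32 to 5.93 CPM in wild type.

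Among 107 genes named as neuropeptide receptors, 84 were tested. In syb385, 1 was called higher (sprr-2, 1.66) and 3 lower (dmsr-12, -2.66; dmsr-6, -1.19; npr-41, -1.15), and in the libraries labelled n3315, 5 were called higher and 5 lower, against the backgrounds given above. The largest of these were npr-14 (1.77), sprr-2 (1.63) and npr-37 (1.499) among the higher and npr-31 (-1.82), npr-41 (-1.76) and dmsr-6 (-1.21) among the lower. npr-37, at 2.47 to 3.76 CPM in wild type and 2.12 to 4.17 CPM in syb385, rose to 7.81 to 10.2 CPM in the libraries labelled n3315 (adjusted p = 0.00014 against wild type and 0.00137 against syb385). The median log2 fold change of the receptor genes was -0.08 in syb385 and 0.08 in the libraries labelled n3315.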

How the data were processed

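The 12 libraries, 4 per genotype, hold poly(A) RNA of whole day 1 adults. The authors used STAR v2.7.5a with the WBcel235 genome and featureCounts v1.5.0, and deposited raw counts per gene, without normalization or pooling. Strand, the annotation release and how multi-mapping reads were treated are not given in the sources used here, and the 12 columns of counts were assigned to samples by the genotype and replicate number in their names. The members and gene lists were chosen with earlier results of these data known.

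The filter on low counts was filterByExpr (edgeR v4.0.16 in R v4.3.3, minimum count of 10, minimum total of 15), which left 14511 genes. After TMM scaling, 1 quasi-likelihood model (edgeR) was fitted to the 12 libraries together, its term being the genotype, with edgeR's default prior count. Calls needed a Benjamini-Hochberg adjusted p under 0.05 over all tested genes and at least 2-fold, the study's threshold. The script was tested on simulated data. Alternatives were DESeq2 v1.42.0, its size factors in edgeR, no filter, 8 libraries only, a 2-fold threshold inside the test (glmTreat), no fold threshold, a prior count of 2, a replicate block, and leaving out each library. SDs are over 4 libraries, and limits from counts cover counting error only. The labels give separate replicates and the study calls them independent biological replicates.

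Members described singly were nlp-27 to nlp-34, every called member and the 5 flp and 5 other nlp genes with the highest wild-type level per kb. Of the other lists only called genes are named, at most 3 per direction and comparison. Any other gene was picked with its values known, and the text says so, or passed the adjusted p alone. No 2 libraries of a genotype agreed within sampling noise (chi-square per degree of freedom of at least 6.61).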

Additional observations from a re-analysis of the deposited data

Results flagged for a closer look

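Among the 26 genes described singly, 76 sets of 4 libraries of a genotype were looked at for a library far from the other 3, and 5 were found, where chance gives about 1 in 20, or 3.80. In wild type, flp-1 was at 17.0 CPM in replicate 4 against 22.4 to 23.4 CPM in the others, flp-10 at 27.7 CPM in replicate 1 against 20.1 to 21.1 CPM, nlp-36 at 49.1 CPM in replicate 3 against 22.4 to 26.6 CPM, and nlp-32 at 0.272 CPM in replicate 3 against 0 in the others. In the libraries labelled n3315, nlp-31 was at 3.78 CPM in replicate 2 against 6.78 to 7.26 CPM.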

How the results depend on the processing

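The count of members called higher in crh-1(syb385), 1 in the report, was 3 with no filter on low counts, 0 with the threshold inside the test, 2 at any fold and 1 to 4 with 1 library left out. That of members called lower, 4 in the report, was 2 with the 8 libraries of the 2 genotypes, 1 with the threshold inside the test, 7 at any fold and 2 to 6 with 1 library left out. In the libraries labelled n3315, the 1 higher call became 3 with DESeq2, 2 with no filter, 0 with 8 libraries, 0 with the threshold inside the test, 0 with a prior count of 2 and 0 to 5 with 1 library left out, and the 6 lower calls became 2 with the threshold inside the test and 15 at any fold, and were 4 to 8 with 1 library left out. Over all genes, the threshold inside the test left 34 higher and 87 lower of 325 and 650 in crh-1(syb385), 129 and 496 of 605 and 1625 in the libraries labelled n3315, and 21 and 17 of 216 and 347 between the mutants. There were 713 higher and 1747 lower with DESeq2, 679 and 1617 with no filter and 536 and 1613 with 8 libraries in the libraries labelled n3315, and 390 and 787, 355 and 660, and 255 and 512 in crh-1(syb385). Without wild type replicate 3 the higher calls in crh-1(syb385) were 517, and without wild type replicate 1 the lower ones were 426. Between the mutants, 0 became 1 higher and 2 lower at any fold, and stayed 0 under the other alternatives run.

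Against wild type, with 1 library left out, fold changes (log2) in crh-1(syb385) ranged from -0.00022 to 0.51 for nlp-31, from -0.998 to 0.74 for nlp-30, from -0.13 to 0.58 for nlp-29 and from -0.53 to 0.13 for nlp-28. Of 228 recomputed values of called members, 190 kept their direction and call, 38 lost the call and 0 reversed. The cause of these changes was not tested.

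The labels do not say whether same-numbered libraries of different genotypes were handled together. Their deviations had correlations of -0.079 to 0.116 over 12 pairs, beside -0.231 to 0.179 for other pairs. A library correlated best with its own number in 5 of 24 cases, so no pairing was seen. With a replicate block, 2 members were called higher in crh-1(syb385), nlp-27 being added (1.37, adjusted p = 0.0104), nlp-48 lost its call there (adjusted p = 0.0523) and nlp-70 in the libraries labelled n3315 (adjusted p = 0.0796), and no other member changed its call.

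Depth limits the members with few counts: the 10 untested genes, and nlp-30, nlp-48 and nlp-70 among the tested.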
